A study of Mus musculus with 25 samples.

Results

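Amino acids do not cross the plasma membrane unaided, and the amino acid transporters are the solute carrier proteins that bring them in, exchange them or let them out. The genes described here are those whose symbol places them in the Slc1, Slc3, Slc6, Slc7, Slc36, Slc38 or Slc43 family. The symbol rule picked 60 of the 25006 entries of the tumour expression table. Of these 60 genes, 54 had a read in at least 1 library, 6 had none, and 30 passed the filter used for testing, a mean normalised count of at least 10 over the libraries. The other 24 genes with reads were too low to test and are given as read counts.

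The study profiled RNA of C57BL/6 mouse cells, some taken from tumours and some grown in culture. The values here come from the tumour experiment: E0771 tumours, which grow from a mouse mammary carcinoma line, in mice that did or did not receive an antibody to CD73, the ectoenzyme that makes adenosine from AMP, every 3 days. There were 3 control libraries (labelled con) and 3 anti-CD73 libraries, each from total RNA of cells labelled as CD8+ T cells enriched from the tumour. Neither the animals' age nor what the controls received is stated in the labels, and replicate numbers are not linked there to individual animals. The p-values therefore measure only the spread between these libraries, which may be technical.

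As background, Slc3 proteins are heavy chains that carry Slc7 light chains to the cell surface, and the pair exchanges one amino acid for another, so it cannot accumulate amino acids alone. Sodium-coupled carriers of the Slc1 and Slc38 families concentrate glutamine and other small neutral amino acids, which the exchangers can then trade for leucine and other essential ones. When amino acids run short, the kinase GCN2 raises translation of the transcription factor ATF4, which increases transcription of several of these carriers, while other members of the families sit on the lysosome and report amino acids to the kinase complex mTORC1.

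The libraries held 10180624 to 17161679 reads in genes, with reads in 15695 to 16596 genes. They did not look like pure CD8+ T cells. Cd8a, which encodes a chain of the CD8 coreceptor, had normalised counts of 122, 7.60 and 24.7 in controls 1 to 3 and 90.2, 82.6 and 35.0 in the anti-CD73 libraries. The macrophage list summed to between 5868 and 16035. A sum over the 9 T cell markers in the table ran only from 163 to 577. These are bulk values, in which fewer cells of a type and less RNA per cell cannot be told apart. Control 1 stood apart from the other controls, with a summed haemoglobin and erythroid level of 7845 against 55529 and 58716, and fold changes of single genes that moved by more than 1.5 times, or crossed the threshold, when it was left out are given with and without it.

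Across the families, limma called no tested transporter with all 6 libraries, and the summed RNA of the families overlapped between the groups. With limma on log2(normalised count + 1), 19 of the 30 tested members were higher and 11 lower after anti-CD73, and 0 had an adjusted p under 0.05, where the share over the 12262 genes tested was also 0%. edgeR on the recovered reads called 0 members, and DESeq2 called 2. At an unadjusted p under 0.05, limma had 4 members higher (13.3% of those tested, against 8.69% of all genes) and 1 lower (3.33%, against 6.82%). Leaving out single libraries gave 1 to 11 higher and 1 to 3 lower. The most came without control 1 (11 and 3), and the fewest higher without control 2 or without anti-CD73 1 (1 each). Shares over all genes at that p were not counted for these runs, so these member counts have no background. The 11 include Slc7a2 and the 3 include Slc38a5, each of which passed the filter only through the group where it was higher. Over all genes, 1066 were higher and 836 lower at that p, a split that became 1369 and 570 when erythroid genes were left out and the libraries rescaled, and turned to 955 and 1010 under quantile normalization. The median log2 fold change of the tested members was 0.09, against 0.0039 over all genes tested. Their fold changes ran from -1.62 to 2.14 on the log2 scale, where the added 1 understates the change of low genes.

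Taken one library at a time, the normalised counts of the 60 genes summed to 72014, 53540 and 51810 in controls 1, 2 and 3 and to 52021, 50217 and 56010 in the anti-CD73 libraries. Control 1 was far above the rest, and the other 5 libraries lay close to each other, so the groups overlapped. Groups did not overlap in 3 members that were higher after anti-CD73 (Slc1a7, Slc6a9 and Slc38a9, 10% of those tested, against 11.5% of all genes) and in 3 that were lower (Slc6a6, Slc38a2 and Slc38a4, 10%, against 12%). Neither share exceeded its background. With fewer libraries groups overlap less by construction. Without control 1, 17 members did not overlap (56.7%, against 53.5% of all genes), and without anti-CD73 3, 13 (43.3%, against 36.2%).

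**Figure D1:**
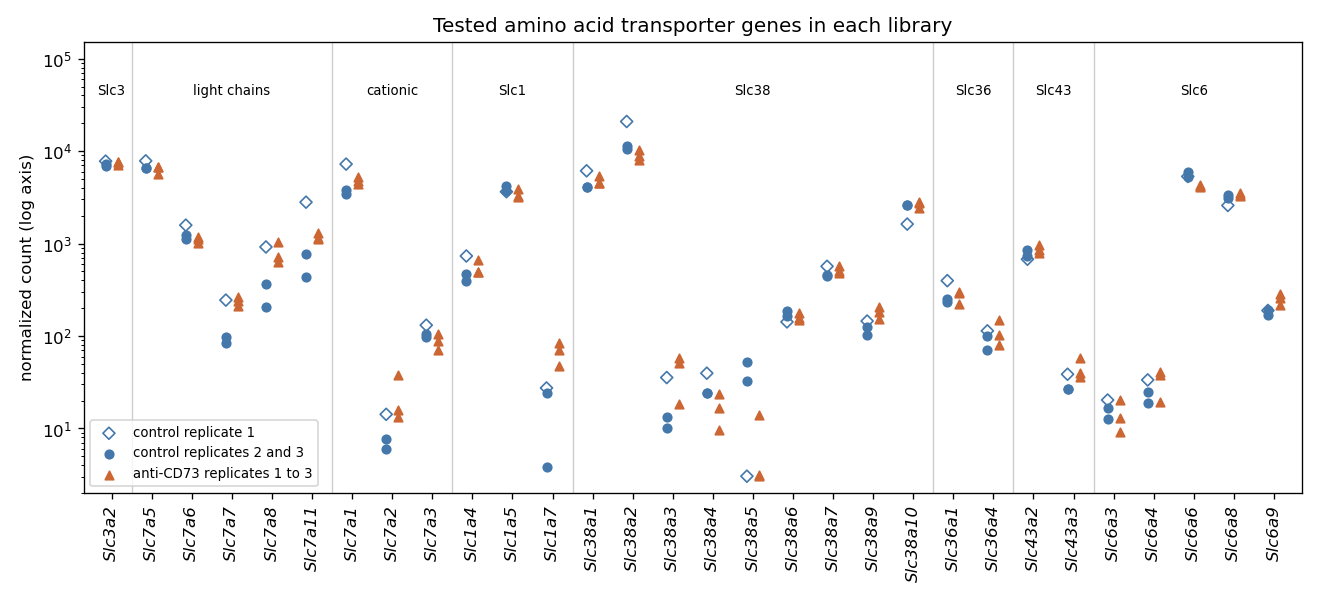
Normalised counts of the 30 tested members on a log10 axis, by role group, with 1 point per library (3 control, 3 anti-CD73). For most members the points of both groups lie together, control 1 is often the highest point, as for Slc7a11 (2804), and Slc6a6 has its controls above all anti-CD73 libraries.

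Control 1 was the highest of the 6 libraries in 13 of the 30 tested members (43.3%), against 30.7% of all genes tested. It exceeded the mean of the other controls by more than 1.5 times in 12 members (40%), against 18% of all genes. Without control 1, limma called 7 members higher after anti-CD73 (23.3% of those tested, against 11.9% of all genes) and 2 lower (6.67%, against 10.3%). Those higher were Slc7a7, Slc7a8, Slc7a11, Slc7a1, Slc1a7, Slc38a3 and Slc38a9, and those lower were Slc6a6 and Slc38a5, the second of which passed the filter on low values only through its controls. These calls rest on 2 control libraries. The DESeq2 calls with all 6 libraries were Slc1a7, higher (3.33% of tested members, against 2.92% of all genes), and Slc6a6, lower (3.33%, against 2.01%).

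**Figure D2:**
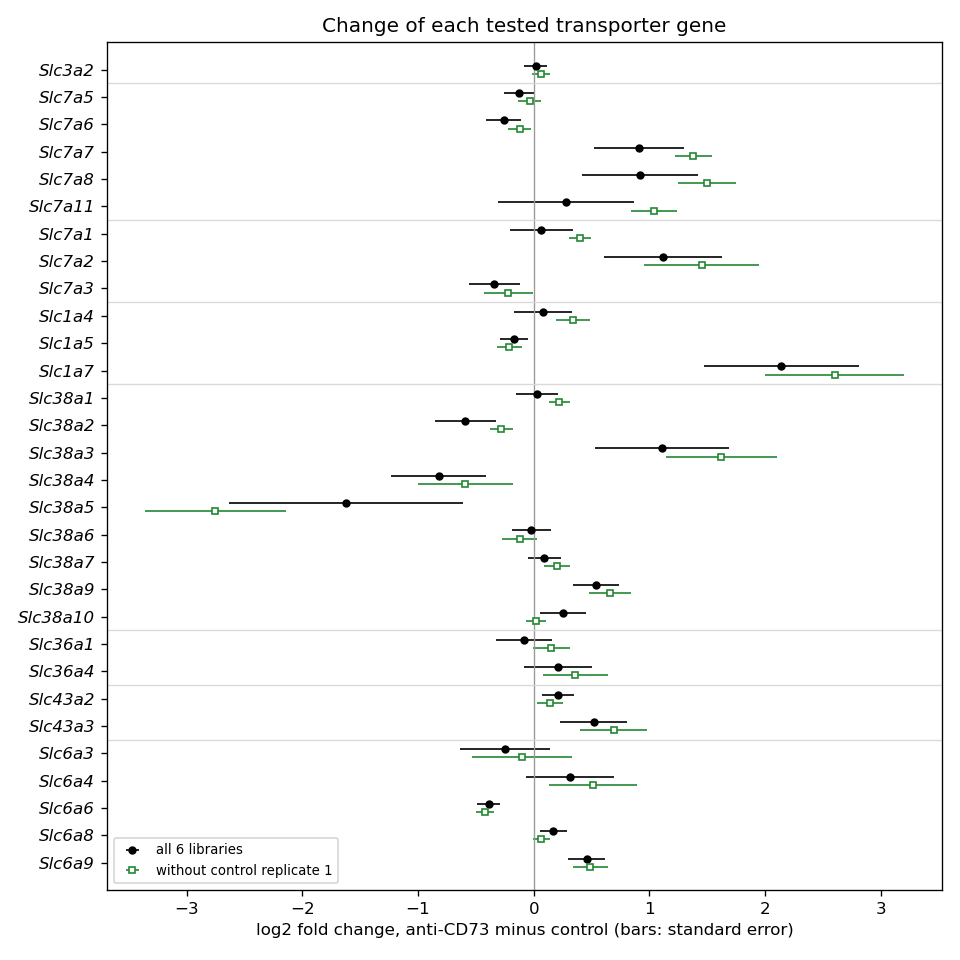
Log2 fold change (anti-CD73 minus control) of the 30 tested members with its standard error, with all 6 libraries and without control 1. Without control 1 the values of Slc7a7, Slc7a8, Slc7a11 and Slc38a3 move up, to 1.38, 1.50, 1.04 and 1.62, while Slc6a6 barely moves (-0.39 and -0.42).

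The heavy chain Slc3a2 (4F2hc or CD98, ENSMUSG00000010095, chr19:8706882-8723369) differed little between the groups. Its normalised counts were 7793, 6972 and 7226 in the controls and 7605, 7050 and 7608 after anti-CD73. The groups overlapped throughout their range, and limma gave a log2 fold change of 0.02 (SE 0.10, adjusted p = 0.9507, and 0.06 without control 1). Slc3a1 (rBAT), the heavy chain known from renal cystine uptake, was near the limit of detection, with 16 reads over the controls and 28 over the anti-CD73 libraries.

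Of the 10 light chains, 5 were tested. Slc7a5 (LAT1), the main partner of Slc3a2 and importer of leucine and other large neutral amino acids, had 7847, 6493 and 6488 in the controls and 6788, 5599 and 6697 after anti-CD73. Its groups overlapped and the log2 fold change was -0.13 (SE 0.13, limma adjusted p = 0.687), and -0.034 without control 1. Slc7a6 (y+LAT2), an exchanger of cationic for neutral amino acids, had 1582, 1253 and 1132 against 1112, 1010 and 1164, a log2 fold change of -0.26 (SE 0.15, limma adjusted p = 0.4446), and -0.12 without control 1.

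The other tested light chains shared a pattern in which controls 2 and 3 were low and control 1 was not. Slc7a7 (y+LAT1, ENSMUSG00000000958, chr14:54369442-54420068), which exports arginine and lysine in exchange for neutral amino acids and is known from macrophages, kidney and gut, had normalised counts of 245, 83.6 and 97.3 in the controls and 239, 267 and 209 after anti-CD73. Control 1 lay within the anti-CD73 range and the other controls far below it. The log2 fold change was 0.91 (SE 0.39, limma adjusted p = 0.3212) and 1.38 without control 1 (limma adjusted p = 0.002032). Slc7a7 overlaps Oxa1l in the annotation, a gene with a mean of 650 and a log2 fold change of -0.10 (SE 0.11), and reads of the pair cannot be told apart if strand was not used in counting.

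Slc7a8 (LAT2, ENSMUSG00000022180, chr14:54722215-54781886), a neutral amino acid exchanger, had 919, 361 and 207 in the controls and 715, 1032 and 631 after anti-CD73. Again control 1 fell among the anti-CD73 libraries and controls 2 and 3 below all of them. Its log2 fold change was 0.92 (SE 0.50, limma adjusted p = 0.4203), and 1.50 without control 1 (limma adjusted p = 0.005252). Without control 3, its lowest library, it was 0.43 (limma adjusted p = 0.6356). Slc7a11 (xCT, ENSMUSG00000027737, chr3:50364936-50499087) imports cystine in exchange for glutamate and so supplies cysteine for glutathione. It had 2804, 764 and 439 in the controls and 1121, 1311 and 1154 after anti-CD73. Control 1 was 4.66 times the mean of the other controls, the largest such ratio among the tested members, and controls 2 and 3 lay below every anti-CD73 library. With all 6 libraries the log2 fold change was 0.28 (SE 0.59, limma adjusted p = 0.8536), a direction that turned in edgeR (-0.13) and DESeq2 (-0.16). Without control 1 it was 1.04 (limma adjusted p = 0.008076), and without control 3 it was -0.30.

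The RefSeq promoter table (GRCm38.p6) holds 63 windows, each from 250 bases before to 50 after a start, for 42 of the members. They were searched on both strands for TGATGNAA, letters of the amino acid response element to which ATF4 and its partners bind, and for TGANNNNGC, the core of the antioxidant response element. TGATGNAA occurred in 5 of the 63 windows, those of 4 members (Slc1a4, Slc6a21, Slc7a7 and Slc7a11), and in 3.97% of all 32851 windows. TGANNNNGC occurred in 35 of the 63, from 27 members, and in 41.3% of all windows, and matches of the 2 motifs can share bases. The stretches around the matches of Slc7a11 and Slc7a7 are shown because both genes were among those called higher without control 1. Capitals mark TGATGNAA on either strand, and the stretches are chr3:50443633-50443699, chr14:54417918-54417952 and chr14:54418058-54418105, each read 5′ to 3′ on the minus strand.
Slc7a11: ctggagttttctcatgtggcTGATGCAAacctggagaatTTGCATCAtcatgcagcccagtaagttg
Slc7a7 first stretch: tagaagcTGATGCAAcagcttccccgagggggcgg
Slc7a7 second stretch: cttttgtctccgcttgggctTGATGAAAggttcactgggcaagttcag

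The Slc7a11 stretch holds 2 matches in opposite orientation, 66 and 47 bases before the start, and this start lies inside the annotated span of the gene. A match is a description of letters and not of binding, and a missing match says only that these letters are not in that window. Slc7a1, Slc7a8, Slc1a7 and Slc38a9 were also called higher without control 1 and have windows without TGATGNAA. The windows of Slc38a2 lack these letters too.

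Among the cationic amino acid transporters, Slc7a1 (CAT1, chr5:148327410-148399904), the general arginine and lysine importer, had normalised counts of 7240, 3805 and 3454 in the controls and 4697, 4430 and 5244 after anti-CD73. Control 1 was the highest of the libraries and controls 2 and 3 the lowest. By limma, the log2 fold change was 0.07 (SE 0.27, adjusted p = 0.9291), and 0.40 without control 1 (limma adjusted p = 0.01723). Its direction was not stable, with -0.0072 by DESeq2 and -0.14 without control 3. Slc7a2 (CAT2), which feeds arginine to activated macrophages, was low at 14.2, 7.60 and 5.99 against 15.8, 38.1 and 13.4, and only control 1 reached into the anti-CD73 range. Its log2 fold change was 1.12 (SE 0.51, limma adjusted p = 0.3435), and 0.68 without anti-CD73 2. It passed the filter on low values only through the anti-CD73 group, where it is higher, so this value supports no difference. Slc7a3 (CAT3) had 131, 105 and 97.3 against 88.3, 70.9 and 104, a log2 fold change of -0.34 (SE 0.22, limma adjusted p = 0.4926, and -0.22 without control 1). The gene overlaps Snx12, a gene with a mean of 1443 and a log2 fold change of -0.36 (SE 0.14). Slc7a14 had 2 reads over the controls and 3 over the anti-CD73 libraries, and Slc7a4 none.

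In the Slc1 family, Slc1a5 (ASCT2), a sodium-dependent exchanger that takes up glutamine, had 3639, 3676 and 4214 in the controls and 3243, 3167 and 3856 after anti-CD73. The groups overlapped through anti-CD73 3, and the log2 fold change was -0.17 (SE 0.12, limma adjusted p = 0.5529). Slc1a4 (ASCT1), which carries serine and alanine, had 734, 397 and 468 against 494, 490 and 668. Its groups overlapped, with a log2 fold change of 0.08 (SE 0.25) that was 0.34 without control 1 and turned to -0.10 without control 2.

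Slc1a7 (EAAT5, ENSMUSG00000008932, chr4:107968406-108013529), a glutamate transporter best known from the retina, had the largest positive fold change of the tested members, at a low level. Its reads numbered 27, 3 and 32 in the controls and 51, 66 and 81 after anti-CD73, or normalised counts of 27.4, 3.80 and 24.0 against 47.4, 69.9 and 83.3. Every anti-CD73 library lay above every control, and control 2 was the lowest. The log2 fold change was 2.14 (SE 0.67, limma adjusted p = 0.2121), and 2.60 without control 1 (limma adjusted p = 0.01754). Without control 2, which held 3 reads, it was 1.31 (limma adjusted p = 0.4123). DESeq2 gave 1.84 (adjusted p = 0.03955). Slc1a3 (GLAST), a glutamate and aspartate importer, had only 11 reads over the controls and 3 over the anti-CD73 libraries. Exact Poisson 95% intervals of these sums, which cover counting error only, were 5.49 to 19.7 and 0.62 to 8.77 reads. Separate intervals do not test a difference, and the gene was too low to test. Slc1a1 and Slc1a2 had 13 reads or fewer per group, and Slc1a6 none.

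The Slc38 family, sodium-coupled carriers of glutamine and other neutral amino acids, had 9 of 11 members tested. Its summed normalised counts were 29604, 18845 and 18183 in the controls and 16756, 16397 and 19193 after anti-CD73. Much of the sum, and of its control 1 excess, came from Slc38a2 (SNAT2, ENSMUSG00000022462, chr15:96687392-96699728), the System A carrier known to be induced when amino acids are scarce. Slc38a2 had 20917, 11278 and 10626 in the controls and 8850, 8108 and 10170 after anti-CD73. All controls lay above all anti-CD73 libraries, control 3 by a narrow margin. By limma, the log2 fold change was -0.59 (SE 0.26, adjusted p = 0.3273), and -0.28 without control 1 (limma adjusted p = 0.07704). Slc38a1 (SNAT1), which also imports glutamine, had 6126, 4111 and 4110 against 4511, 4533 and 5365. Its groups overlapped and its log2 fold change was 0.03 (SE 0.18), with 0.22 without control 1 and -0.068 without control 2.

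Among the lower Slc38 members, directions differed. Slc38a3 (SNAT3), a System N glutamine carrier prominent in liver, had 35.5, 10.1 and 13.5 in the controls and 51.1, 57.2 and 18.5 after anti-CD73. Control 1 lay above anti-CD73 3 alone. The log2 fold change was 1.11 (SE 0.58, limma adjusted p = 0.408), and 1.62 without control 1 (limma adjusted p = 0.0417). Slc38a5 (SNAT5, ENSMUSG00000031170, chrX:8271381-8280179), the related System N carrier, went the other way. It had 3, 26 and 70 reads in the controls and 15, 3 and 3 after anti-CD73, or normalised counts of 3.05, 32.9 and 52.4 against 13.95, 3.18 and 3.09. Controls 2 and 3 were the highest libraries, as in the erythroid sums above, while control 1, anti-CD73 2 and anti-CD73 3 had 3 reads each. The anti-CD73 libraries did not share the erythroid order. There the erythroid sum was higher in anti-CD73 2 (30978) than in anti-CD73 1 (20624), and Slc38a5 was lower. The relation of Slc38a5 to these sums was not tested. By limma, the log2 fold change was -1.62 (SE 1.01, adjusted p = 0.4852), and -2.75 without control 1 (limma adjusted p = 0.01485). Without control 3 it was -0.89 (limma adjusted p = 0.7064). The gene passed the filter on low values only through the controls, with a mean of 29.5 against 6.74 after anti-CD73, so these tests support no difference. Slc38a4 (SNAT4) had 39.6, 24.1 and 23.95 in the controls and 16.7, 9.53 and 23.65 after anti-CD73, groups that were separated by less than 1 read, with a log2 fold change of -0.82 (SE 0.41, limma adjusted p = 0.3795).

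Slc38a9 (ENSMUSG00000047789, chr13:112656189-112738752) is a lysosomal arginine sensor that signals to mTORC1. Its normalised counts were 145, 125 and 102.5 in the controls and 183, 207.5 and 152 after anti-CD73. Every anti-CD73 library lay above every control, the closest pair being control 1 and anti-CD73 3. The log2 fold change was 0.54 (SE 0.20, limma adjusted p = 0.2733), and 0.66 without control 1 (limma adjusted p = 0.03249). Slc38a6, Slc38a7, a lysosomal glutamine exporter, and Slc38a10 had log2 fold changes of -0.02, 0.09 and 0.25, and of -0.12, 0.20 and 0.018 without control 1. Slc38a8, with 2 reads over the controls and 13 over the anti-CD73 libraries, and Slc38a11 were too low to test.

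**Figure D3:**
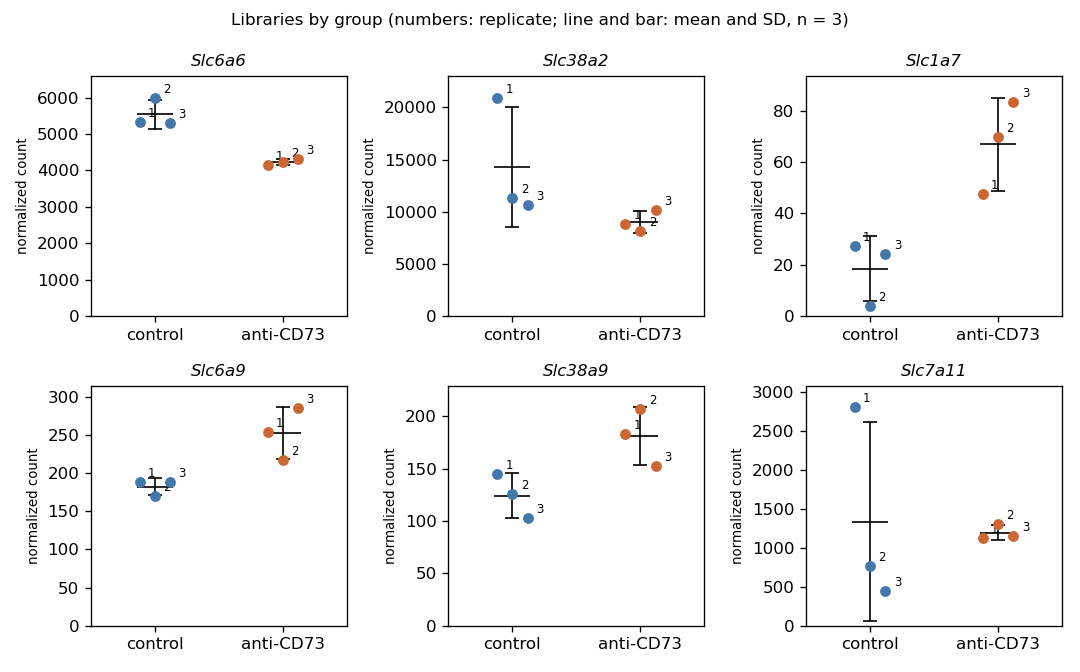
Normalised counts of Slc6a6, Slc38a2, Slc1a7, Slc6a9, Slc38a9 and Slc7a11 in each library, with the mean and SD of each group (n = 3) and the replicate number beside each point. Groups do not overlap in the first 5, and in Slc7a11 control 1 (2804) is far above the other controls (764 and 439).

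The Slc36 family, which includes proton-coupled carriers of small amino acids, had 2 of 4 members tested. Slc36a1 (PAT1) stood at 397, 234 and 249 against 219, 303 and 293, overlapping groups with control 1 the highest and a log2 fold change of -0.08 (SE 0.24, 0.15 without control 1). Slc36a4 (PAT4) had 114, 98.8 and 70.35 against 103, 149 and 80.2, a log2 fold change of 0.21 (SE 0.29, 0.36 without control 1). Slc36a3 had 4, 0 and 0 reads in the controls and 5, 10 and 5 after anti-CD73. Slc36a2 had 1 read in all.

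The Slc43 facilitators carry large neutral amino acids without sodium, apart from Slc43a3, which carries purine bases. Slc43a2 (LAT4) had 677, 848 and 739 against 862, 971 and 793, and only anti-CD73 3 fell within the control range. Its log2 fold change was 0.21 (SE 0.14, 0.14 without control 1). Slc43a3 had 38.6, 26.6 and 26.9 against 39.98, 58.2 and 35.99, a log2 fold change of 0.52 (SE 0.29, limma adjusted p = 0.4379), with control 1 above anti-CD73 3. Slc43a1 (LAT3) had 28 reads over the controls and 20 over the anti-CD73 libraries and was not tested.

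The Slc6 family holds carriers of taurine, creatine, glycine and neurotransmitters, of which 5 of 18 members were tested. Slc6a6 (TauT, ENSMUSG00000030096, chr6:91684048-91759063), the taurine transporter, was the member with the smallest adjusted p. It had 5327, 5998 and 5305 in the controls and 4143, 4225 and 4325 after anti-CD73. All controls lay above all anti-CD73 libraries, with a gap wider than the range of the anti-CD73 group. By limma, the log2 fold change was -0.39 (SE 0.10, adjusted p = 0.1777). DESeq2 gave -0.38 (adjusted p = 0.01719), and limma without control 1 gave -0.42 (adjusted p = 0.008332). Leaving out control 1 thus hardly changed its size.

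Slc6a9 (GlyT1, ENSMUSG00000028542, chr4:117835258-117869305), the glycine transporter also used by erythroid precursors, had 188.9, 169.8 and 189.3 in the controls and 255, 218 and 286 after anti-CD73. The control values were close together and all lay below the anti-CD73 values. The log2 fold change was 0.46 (SE 0.16, limma adjusted p = 0.2381), and 0.49 without control 1 (limma adjusted p = 0.05083). Slc6a8 (CT1), the creatine transporter, had 2586, 3314 and 3123 against 3386, 3242 and 3482, a log2 fold change of 0.17 (SE 0.12, 0.066 without control 1), with control 2 inside the anti-CD73 range. The dopamine and serotonin transporters Slc6a3 and Slc6a4 had log2 fold changes of -0.25 (SE 0.39) and 0.31 (SE 0.38), and of -0.10 and 0.51 without control 1.

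Genes that act on the same amino acids were counted from lists chosen by role. In the amino acid stress response list, which holds Atf4 and its known targets, 17 of 20 genes were tested, 9 higher and 8 lower, and the median of their log2 fold changes was 0.036, with 0 called by limma. Pycr1, a proline synthesis enzyme, had 56.9, 63.35 and 46.4 in the controls and 86.5, 75.2 and 105 after anti-CD73, without overlap (log2 fold change 0.67, SE 0.23, limma adjusted p = 0.2317). Shmt2, the mitochondrial serine hydroxymethyltransferase, had 3483, 2983 and 3299 against 4180, 3560 and 4211 (0.29, SE 0.12, limma adjusted p = 0.3062). Both were higher in every anti-CD73 library, although the list as a whole was centred near 0. Without control 1, limma called 3 of its genes higher and 1 lower, Shmt2 among the higher (0.34, limma adjusted p = 0.0351). Over all genes tested, that setting called 11.9% higher and 10.3% lower.

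Of the lysosomal amino acid sensing genes, the Rag GTPases, Ragulator subunits and their regulators, 19 of 20 were tested, 6 higher and 13 lower, with a median of -0.11 and 0 called. Rragc, which encodes the RagC GTPase, had 2772, 2353 and 2238 in the controls and 1773, 1667 and 1963 after anti-CD73, without overlap (log2 fold change -0.44, SE 0.13, limma adjusted p = 0.1887). Flcn, its activating protein folliculin, had a log2 fold change of -0.22 (SE 0.12, limma adjusted p = 0.3988). Slc38a9, which binds these proteins, lay higher, as given above. Without control 1, limma called 1 of the 19 higher and 3 lower, against 11.9% and 10.3% of all genes. Rragc was among the lower (-0.35, limma adjusted p = 0.0241).

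The enzymes of glutamine and glutamate metabolism were all 10 tested, 5 higher and 5 lower, with a median of -0.07 and 0 called by limma. Glul, glutamine synthetase, had 773, 701 and 605 in the controls and 475, 441.5 and 466 after anti-CD73, without overlap. Its log2 fold change was -0.58 (SE 0.13, limma adjusted p = 0.1628). It was the 1 gene of the list that DESeq2 called, where 2.01% of all genes were called lower. Glud1, glutamate dehydrogenase, had 4013, 5021 and 4772 against 3707, 3514 and 3745 (-0.33, SE 0.12, limma adjusted p = 0.2618). Without control 1, limma called both of these lower (Glul -0.50, adjusted p = 0.01238, and Glud1 -0.42, adjusted p = 0.005788), and 1 gene of the list higher. The shares of all genes in that setting were 10.3% lower and 11.9% higher.

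Arginine and tryptophan enzymes had 7 of 10 tested, 5 higher and 2 lower, with a median of 0.72 and 0 called. Nos2, inducible nitric oxide synthase, had 2383, 1439 and 1631 in the controls and 2262, 3170 and 3493 after anti-CD73 (log2 fold change 0.72, SE 0.23, limma adjusted p = 0.2181). Arg1, arginase of alternatively activated macrophages, had 443, 128 and 157 against 507, 1112 and 320 (1.44, SE 0.57, limma adjusted p = 0.2935). In both, control 1 lay inside the anti-CD73 range and the other controls below it, as in Slc7a7. Of the 7, limma called 4 higher without control 1, against 11.9% of all genes. Among these limma calls were Nos2 (0.93, adjusted p = 0.006021) and Arg1 (1.99, adjusted p = 0.01143). The 4 also include Kmo, with 23.35, 2.53 and 3.74 in the controls and 21.4, 15.9 and 13.4 after anti-CD73. Kmo passed the filter on low values only through the anti-CD73 group, where it is higher, so its call supports no difference.

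Enzymes of branched-chain amino acid breakdown, 8 of 8 tested, were 4 higher and 4 lower with a median of -0.03. The smallest p-values belonged to Dld (log2 fold change -0.27, SE 0.17, limma adjusted p = 0.488) and Dbt (-0.21, SE 0.16, limma adjusted p = 0.5809). Without control 1 these fold changes were -0.082 and -0.063. In that setting limma called 1 gene of the list higher and 1 lower, against 11.9% and 10.3% of all genes. Among other amino acid and peptide transporters, 8 of the 9 genes with an entry were tested, 6 higher and 2 lower, with a median of 0.22. Slc15a3, a lysosomal histidine and peptide carrier of myeloid cells, had 1695, 907 and 694 in the controls and 2422, 2553 and 1685 after anti-CD73, control 1 overlapping anti-CD73 3 (1.10, SE 0.33, limma adjusted p = 0.1969). Slc17a5, a lysosomal sialic acid and acidic amino acid carrier, had 0.23 (SE 0.15, limma adjusted p = 0.5161). Of these 8, limma called 2 higher without control 1 (against 11.9% of all genes), among them Slc15a3 (1.46, adjusted p = 0.002336).

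Several cell type marker lists moved between the libraries beside these values. Macrophage markers were higher in 10 of 10 tested (median log2 fold change 0.65), with sums of 10893, 6538 and 5868 in the controls and 12447, 16035 and 9124 after anti-CD73. Control 1 was the highest control and lay within the anti-CD73 range, the order seen in Slc7a7, Slc7a8, Arg1 and Slc15a3. Neutrophil markers were higher in 6 of 8 tested (median 0.93), with sums of 5829, 7877 and 6797 against 12386, 15159 and 8538, without overlap, and control 1 was their lowest library. Endothelial markers (3 of 6 tested, all 3 higher, median 1.16) summed to 760.5, 251 and 195 against 705, 845 and 554. Dendritic cell markers (5 of 7 tested, all 5 higher, median 0.58) summed to 847, 378 and 349.5 against 1059, 955 and 680. T cell markers were higher in 9 of 9 (median 0.69), with sums of 574, 163 and 205 against 577, 508 and 296. In these 3 lists too, controls 2 and 3 had the lowest sums. Cldn5, an endothelial marker too low to test, did not share this order (0, 11.4 and 9.73 against 0.93, 1.06 and 5.14).

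Erythroid markers were lower in 5 of 5 tested (median -0.73), with sums of 7845, 55529 and 58716 in the controls against 20624, 30978 and 8412. Epithelial markers (1 of 3 tested higher, median -0.29) summed to 1961, 3663 and 4660 against 2501, 2115 and 2700. The 1 higher marker, Krt19, passed the filter on low values only through the anti-CD73 group, so it supports no difference. By these sums, controls 2 and 3 were the highest libraries in both lists, and they were the lowest in the macrophage sum. The epithelial sum was mostly Krt8 (1856, 3591 and 4559 against 2341, 2000 and 2651). The other tested epithelial markers did not share this order. Krt18 had 89.4, 54.5 and 84.6 against 111.6, 54.0 and 37.0, and Krt19 had 0, 7.60 and 5.99 against 24.2, 33.9 and 2.06. Without control 1, limma called 6 of the 10 macrophage markers higher and 5 of the 5 erythroid markers lower, against 11.9% and 10.3% of all genes. It also called 4 of 9 T cell, 4 of 8 neutrophil, 2 of 5 dendritic cell, 3 of 3 endothelial and 1 of 7 fibroblast markers higher. Of the epithelial markers it called 1 of 3 lower. Fibroblast markers (5 of 7 higher, median 0.24) summed to 4434, 5021 and 4008 against 5123, 6028 and 5629, and the adipocyte markers, of which 0 were tested, to between 10.15 and 22.3. No list held a marker at 0 in all 6 libraries, and the part of these cell types in the transporter values was not tested.

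**Figure D4:**
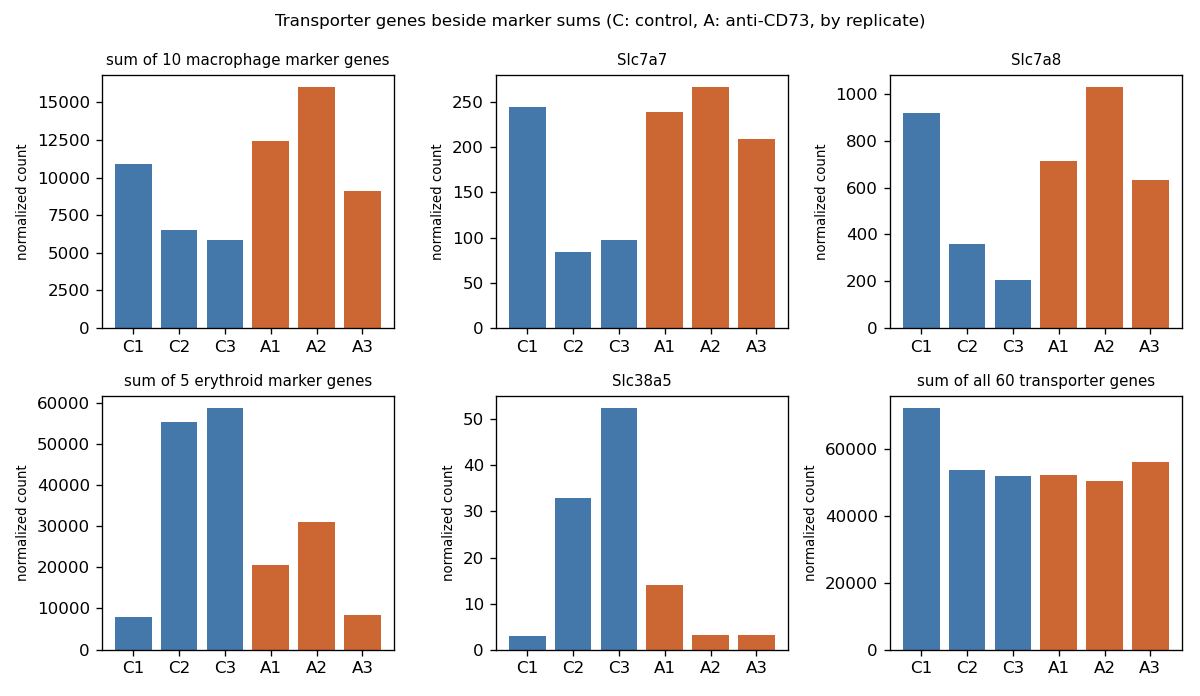
Normalised counts in the 6 libraries (C1 to C3, control; A1 to A3, anti-CD73), 1 bar per library, for the macrophage and erythroid marker sums, Slc7a7, Slc7a8, Slc38a5 and the sum of all 60 transporter genes. Slc7a7 and Slc7a8 are lowest in C2 and C3, which also have the lowest macrophage sums (6538 and 5868). Slc38a5 is highest in the same libraries, which have the highest erythroid sums. Among the anti-CD73 libraries, Slc38a5 is highest in A1 (13.95) and the erythroid sum in A2 (30978).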

How the data were processed

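RNA libraries of the tumour experiment (3 control, 3 anti-CD73) were analysed from one deposited table of normalised counts. The remaining 19 of 25 samples were not used. The values, of unit signal, are counts that the authors divided by a size factor per library, per the labels. The submitters' processing notes name Bowtie 0.12.7 and the mm10 build without giving their role, and whether counting used strand is not given in these sources. Dividing each library by its smallest step returned whole reads for 100% of values (within 0.01 of an integer), and these read counts recovered from the deposited values served edgeR 4.0.16 and DESeq2 1.42.0.

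The main test was limma 3.58.1 (R 4.3.3) with an intensity trend on log2 values, log2(deposited normalised count + 1), two-sided and without a replicate block, over the 12262 genes with a mean of at least 10, with Benjamini-Hochberg adjustment over these genes and a threshold of 0.05. DESeq2 gave an adjusted p for 12018 genes. The fits were tested on simulated data. Alternatives were other pseudocounts, filters, scalings, tools and replicate blocks, and leaving out each library.

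The members, role groups, pathway lists and markers were chosen with earlier results of these data known. Named members were a fixed panel plus the 8 tested members with the smallest p in each direction. For each pathway list the 2 genes with the smallest p were named. Members outside this rule that are given with read counts or fold changes (such as Slc3a1, Slc6a4 or Slc38a8) were added to account for each role group, and Arg1, Nos2 and the marker genes come from their lists. Gene spans and promoter windows are from RefSeq (GRCm38.p6), in which all 60 members had a span. Totals of 10180624 to 17161679 reads per library set the counting precision.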

Additional observations from a re-analysis of the deposited data

How the results depend on the processing

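Among 25 named tested members, 17 kept the direction of their fold change in every alternative run. Of 444 alternative values 396 kept direction and side of the threshold, 29 passed it and 19 reversed. These runs use the same libraries again, and the named members were partly picked by their p in these data. A kept direction is therefore no independent support. Counts moved most without control 1. For most settings, shares over all genes at an unadjusted p under 0.05 were not counted. Shifts of the member counts at that p therefore cannot be told from shifts over all genes. Under quantile normalization, 955 genes were higher and 1010 lower at that p, against 1066 and 836 in the main fit. Genes called over all tested (0) numbered 592 by DESeq2, 1780 with the replicate block by description number, 2703 by edgeR without control 1, and 0 to 2724 when single libraries were left out. Members called (0) numbered 2, 8, 10 and 0 to 9 in the same settings. Members higher at an unadjusted p under 0.05 (4) numbered 7 with no filter, 2 at a mean of at least 50, 1 under quantile normalization, 10 with the description-number block, 12 by edgeR without control 1, and 1 to 11 with single libraries left out. Members lower (1) numbered 2 with no filter, under quantile normalization, by edgeR, and with either replicate block, 3 by DESeq2 and by edgeR without control 1, and 1 to 3 with single libraries left out. Members without overlap (6) numbered 7 to 17 with single libraries left out, since fewer libraries overlap less by construction. They numbered 17 without control 1 (56.7%, against 53.5% of all genes) and 13 without anti-CD73 replicate 3 (43.3%, against 36.2%). For the other left-out libraries, shares over all genes were not counted, so those counts have no background. The members' median log2 fold change (0.087) stayed positive, from 0.011 without control 3 to 0.20 by edgeR without control 1.

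Reversed log2 fold changes were Slc7a11 (-0.13 by edgeR, -0.16 by DESeq2, -0.30 to 1.04 with single libraries left out), Slc7a1 (-0.0072 by DESeq2, -0.14 to 0.40), Slc36a1 (0.069 with the description-number replicate block, 0.18 by edgeR without control 1, -0.22 to 0.15), Slc7a5 (0.055 with that block), Slc1a4 (-0.10 to 0.34), Slc38a1 (-0.068 to 0.22), Slc3a2 (-0.017 to 0.063) and Slc36a4 (-0.023 to 0.42), and the cause was not tested. Whether title numbers pair the libraries was not settled. Same-number deviations correlated at 0.19, -0.1 and 0.26, and those of other pairs at -0.27 to 0.19. That replicate block called 0 genes, as did the main fit without a block. Description numbers are shared only by 2 pairs, so that block compares 4 libraries. Depth limits the 24 members with reads below the filter.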
